A study of Mus musculus with 14 samples.

Results

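The genes described here are 83 gene IDs whose RNA was higher in C2C12 myoblasts depleted of the Qk5 isoform of Quaking while it stood close to control after depletion of the Qk6 and Qk7 isoforms. They were chosen by the measured values themselves, from the 1036 genes of the authors' deposited expression table. That table holds only genes past a DESeq adjusted p of 0.1. The conditions were a control mean of at least 20 normalized counts, a log2 ratio of Qk5 depletion over control of at least 0.8, and an absolute log2 ratio of Qk6/7 depletion over control under 0.3. In all, 103 genes met them, and 20 of these are not among the 83, since the selection leaves out 8 of them by name and 12 by a run of neighbouring IDs. The 83 IDs stand for 82 genes, since ADAM22 and Adam22 are both listed and RefSeq gives both the symbol Adam22. Because the folds chose the members, the folds and their p-values are given as a description and not as evidence.

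C2C12 is a mouse myoblast line, grown as dividing precursor cells that can fuse into muscle fibres. The cells were kept in high-glucose DMEM with 10% fetal bovine serum and transiently transfected with Lipofectamine 2000. The 3 groups used here are control, Qk5 depletion and Qk6/7 depletion, each with 3 replicates of the same line, and none of the labels used here gives a genetic change, a time after transfection or the sequence of an interfering RNA. Total RNA was depleted of ribosomal RNA before sequencing. A pan-Qk group with 1 replicate was not analysed here. The labels do not say whether replicates were separate cultures, and the spread behind the authors' p-values may therefore be technical.

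Quaking (Qk) is an RNA-binding protein of the STAR family. It recognises a short RNA word, written in DNA letters as ACTAAC or ACTAAT, often with a shorter partner word nearby, and is known for roles in splicing, RNA stability and translation in glia and muscle. Its isoforms share the RNA-binding domain and differ in their C-terminal tails: Qk5 carries a nuclear localisation signal, and Qk6 and Qk7 are found largely in the cytoplasm.

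Only group means are deposited, so no spread can be given for a level or a fold, and depth per sample is unknown. The same control samples stand in both comparisons, so the 2 folds of a gene share their denominator. For Qk itself, the authors' deposited table gives means of 5875 normalized counts in control, 3267 in Qk5 depletion and 5271 in Qk6/7 depletion. The DESeq adjusted p of Qk in the authors' deposited table was 0.00246 in Qk5 depletion and 1 in Qk6/7 depletion. The value covers the whole gene, so it does not check either isoform. Of 9 myoblast and myotube markers, 4 are listed in a table that holds only genes past an adjusted p of 0.1. The myoblast regulator Myf5 had authors' means of 810 in control, 969.8 in Qk5 depletion and 1521 in Qk6/7 depletion. The authors' DESeq test called Myf5 higher in Qk6/7 depletion but not in Qk5 depletion. The other 3 mark differentiating muscle, and the authors' deposited table calls them higher in Qk5 depletion but not in Qk6/7 depletion. The differentiation factor Myog had authors' means of 153 in control, 389.9 in Qk5 depletion and 232 in Qk6/7 depletion. Skeletal actin, Acta1, had authors' means of 475, 1325 and 619.7 in the same order, and the muscle creatine kinase Ckm 25.8, 76.3 and 32.8. In a short panel of defining markers of other cell types, 1 of 4 for macrophages was listed (Cd68), and none of the defining markers of adipocytes, bone or cartilage, smooth muscle, endothelium, neurons or glia. Longer lists of such markers added Synpo2 for smooth muscle, Phex and Runx2 for bone and cartilage, and Tubb3 for neurons and glia. Synpo2 had authors' means of 96.97 in control, 189 in Qk5 depletion and 121 in Qk6/7 depletion, and was called higher in Qk5 depletion in the authors' deposited table. Cd68 had authors' means of 56.6, 77.0 and 19.3 in the same order, and was called lower in Qk6/7 depletion only. Runx2 was called higher in Qk6/7 depletion only. The full cell identity therefore cannot be read from this table, and the part of other cell types in the results was not tested. In bulk RNA, fewer cells of a type and less RNA per cell cannot be told apart.

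The authors' mean of the 83 genes ran from 21.2 to 3733 normalized counts in control, with a median of 109. In Qk5 depletion it ran from 46.0 to 6875, with a median of 222, and in Qk6/7 depletion from 17.3 to 4420.3, with a median of 111. Most of these genes were of modest level, since the median control mean over the whole table was 264. The log2 ratio of Qk5 depletion over control had a median of 1.07 and quartiles of 0.91 and 1.36, against a median of 0.45 over all listed genes. The ratio was at least 2 in 49 of the 83 and at least 3 in 8. In Qk6/7 depletion the log2 ratio ran from -0.29 to 0.30 around a median of -0.00, against -0.11 over all listed genes. There, 41 genes lay above control and 42 below it, and 21 were within 0.1 of it on the log2 scale.

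At the authors' DESeq adjusted p of 0.05, the authors' deposited table calls 74 of the 83 higher in Qk5 depletion. The share called higher was 34.7% of the 1036 listed genes and 2.17% of all genes tested. The other 9 of the 83 had adjusted p of up to 0.0934. In Qk6/7 depletion the authors' DESeq test called 0 of the 83 at that threshold, where 1.90% of all genes tested were called in either direction. None of the 83 had an unadjusted p under 0.05 there, and the smallest was 0.256, for Cnr1. The rule used both contrasts, and the listed genes had already passed an adjusted p of 0.1, so nothing is read from these counts. A p that misses the threshold does not show that a gene was unaffected by Qk6/7 depletion.

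**Figure D1:**
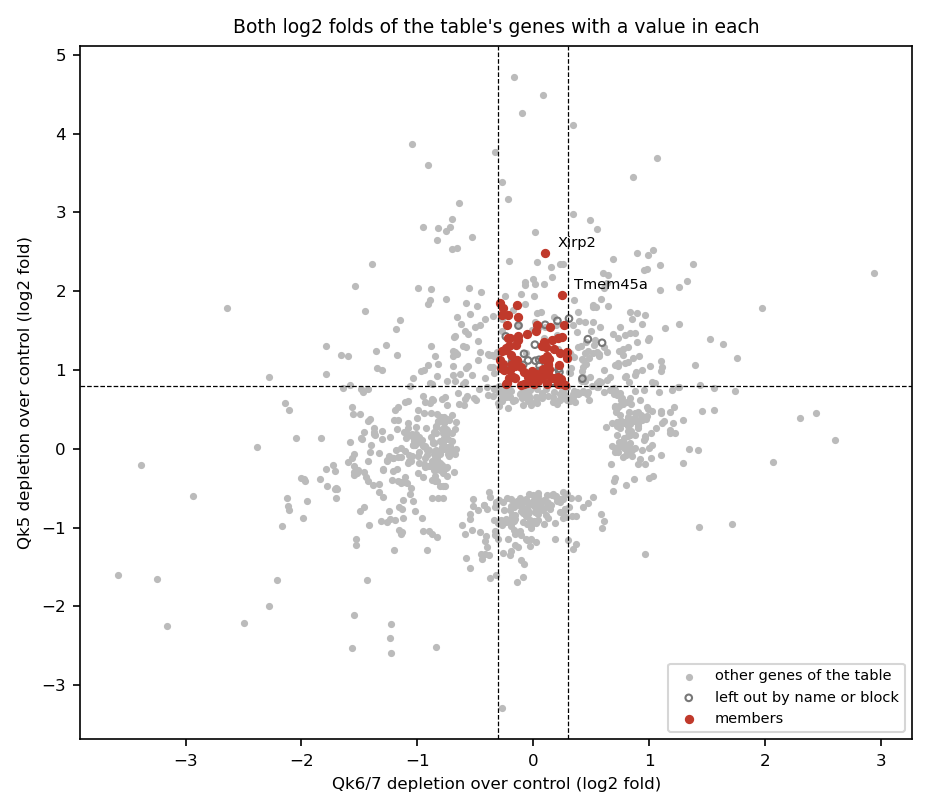
Log2 ratio of Qk5 depletion over control (vertical axis) against log2 ratio of Qk6/7 depletion over control (horizontal axis), 1 point per gene of the expression table with a value in each, from the authors' group means. The 83 genes, in red, lie within 0.3 of 0 on the horizontal axis and from 0.8 upwards, with Xirp2 highest at 2.48. Open circles are genes left out by name or ID, and grey points above the same limits are genes with a control mean under 20.

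The genes were grouped by the roles their products are known for, after their values had been seen. Counts of called genes within a role stand beside 74 called of all 83, and nothing is read from them. Muscle fibre proteins and enzymes made up 6 of the 83, all called higher in Qk5 depletion, with log2 ratios from 0.90 to 2.48 and a median of 1.27. Xirp2, an actin-binding repeat protein of muscle, had the largest ratio of all, with authors' means of 48.1 in control, 269 in Qk5 depletion and 51.7 in Qk6/7 depletion. This 5.59-fold difference compares with 1.07-fold in Qk6/7 depletion. Capn3, the muscle calpain, had authors' means of 58.0 in control, 151 in Qk5 depletion and 53.1 in Qk6/7 depletion. For Car3, a carbonic anhydrase of muscle and fat, the authors' means were 134 in control, 333 in Qk5 depletion and 142 in Qk6/7 depletion. Both stood about as far above control as each other, at 2.60-fold and 2.48-fold. Cox7a1, the muscle form of a cytochrome c oxidase subunit, had authors' means of 40.6, 95.3 and 49.8 in control, Qk5 and Qk6/7 depletion. Rcan2, a regulator of the phosphatase calcineurin, had authors' means of 174, 346 and 151 in the same order. Acyp2, the muscle type of acylphosphatase, was the smallest of the group, with authors' means of 87.5, 163 and 98.5. In each case Qk5 depletion was the high group and the other groups lay near each other, as the selection required of all 83.

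The sarcomere list, with 47 genes, shows what else of the contractile apparatus was listed. The authors' deposited table holds 21 of them, of which 18 were called higher in Qk5 depletion, none lower, and none in either direction in Qk6/7 depletion. Since the table holds only genes past an adjusted p of 0.1, such counts of listed genes stand beside high shares over all 1036: 34.7% called higher and 12.8% lower in Qk5 depletion, and 9.75% higher and 20.7% lower in Qk6/7 depletion. The median log2 ratio of the 21 sarcomere genes was 1.56 in Qk5 depletion and 0.39 in Qk6/7 depletion, against 0.45 and -0.11 over all listed genes. Xirp2 is the only one among the 83, and the selection leaves out several others by name. Of 22 myogenic regulators, 5 were listed and none is among the 83. In Qk5 depletion 1 of the 5, Myog, was called higher and none lower. In Qk6/7 depletion 1, Myf5, was called higher and 3, Id1, Id2 and Id3, were called lower.

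Secreted signals numbered 6, all called higher in Qk5 depletion, with log2 ratios from 0.99 to 1.83. Ccl8, a chemokine that attracts monocytes, had authors' means of 41.5 in control, 148 in Qk5 depletion and 37.7 in Qk6/7 depletion. Tslp, a cytokine of epithelial and stromal cells, had authors' means of 45.5, 147 and 37.8 in control, Qk5 and Qk6/7 depletion. These low-level genes were 3.56-fold and 3.24-fold above control in Qk5 depletion, and both lay slightly below control in Qk6/7 depletion. Nppb, which encodes a natriuretic peptide, had authors' means of 60.6, 145 and 68.9 in the same order. Fgf5, a fibroblast growth factor, had authors' means of 87.9, 194 and 96.5. Hgf, the ligand of the Met receptor and an activator of muscle satellite cells, was the most abundant of the 6 by mean count, with authors' means of 388 in control, 776 in Qk5 depletion and 326 in Qk6/7 depletion. Figf, which RefSeq lists as the growth factor gene Vegfd, had authors' means of 119.6, 237 and 131. Of 48 growth factors and receptors on the list, 8 were in the authors' deposited table, 4 were called higher and 1 lower in Qk5 depletion, and 1 was called in each direction in Qk6/7 depletion. With 34.7% of all listed genes called higher in Qk5 depletion, 4 of 8 is near that background.

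Receptors and guidance proteins of the cell surface were 9 of the 83, all called higher in Qk5 depletion, with a median log2 ratio of 1.17. Adam22, a protease-family member that lacks catalytic activity and binds LGI proteins, is listed under 2 gene IDs that may count reads of the same transcripts. Under the ID spelled ADAM22 the authors' means were 56.7 in control, 205 in Qk5 depletion and 46.5 in Qk6/7 depletion. Under the ID spelled Adam22 they were 83.8, 288 and 70.2 (authors' means, same order). Both IDs show the same pattern, and they are not independent. Gpr153, an orphan G-protein-coupled receptor, had authors' means of 93.5, 302 and 80.5. Cnr1, the cannabinoid receptor of the nervous system, had authors' means of 167 in control, 440.2 in Qk5 depletion and 193 in Qk6/7 depletion. Unc5c, a receptor for the guidance cue netrin, had authors' means of 84.3, 172 and 69.4, and Sema4f, a membrane semaphorin, 127, 287 and 138. Of 53 axon guidance and adhesion genes, 8 were listed, of which 5 were called higher and 2 lower in Qk5 depletion, and 1 lower in Qk6/7 depletion, beside 34.7%, 12.8% and 20.7% of all listed genes. The immune receptors Havcr2 and Il2rg are also here: Havcr2, known as TIM-3, had authors' means of 209, 442 and 185. Il2rg, the shared chain of several interleukin receptors, had authors' means of 112, 221 and 111. Pcdhb17, a clustered protocadherin, had authors' means of 64.5, 141 and 58.4. Its cluster holds close paralogs that can share reads, so its level is uncertain.

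Matrix and adhesion genes were 6, of which 5 were called higher in Qk5 depletion. Hmcn1, the extracellular protein hemicentin, had the largest ratio of them, with authors' means of 79.9 in control, 209 in Qk5 depletion and 89.7 in Qk6/7 depletion. Lamb3, a laminin beta chain of epithelial basement membranes, had authors' means of 344, 703 and 320.1. Htra3, a secreted serine protease, had authors' means of 60.2, 127 and 50.4. At the top of the level range was Col1a1, a chain of type I collagen and the gene with the highest control mean of the 83. Its authors' means were 3733 in control, 6875 in Qk5 depletion and 4420.3 in Qk6/7 depletion, and its adjusted p of 0.0534 in the authors' deposited table missed the threshold. Aebp1, a collagen-binding matrix protein, had authors' means of 1051, 1873 and 1014, and Mxra8, a membrane adhesion protein, 672, 1184 and 636. Among 55 matrix genes, 15 were listed, with 7 called higher and none lower in Qk5 depletion, and 5 higher and 1 lower in Qk6/7 depletion. Over all listed genes the shares were 34.7% and 12.8% in Qk5 depletion, and 9.75% and 20.7% in Qk6/7 depletion.

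Enzymes and transporters of lipid, sugar and mineral metabolism were 9, all called higher in Qk5 depletion, with log2 ratios from 0.82 to 1.49. Mgam, an enzyme that splits maltose and starch fragments, was the highest in ratio, with authors' means of 219 in control, 615 in Qk5 depletion and 223 in Qk6/7 depletion. Phex, a membrane peptidase needed for phosphate balance in bone, had authors' means of 311, 795 and 333. It is 1 of 2 listed genes of 13 bone and cartilage markers. The other, Runx2, had authors' means of 595 in control, 819 in Qk5 depletion and 1096 in Qk6/7 depletion. The authors' DESeq test called Runx2 higher in Qk6/7 depletion but not in Qk5 depletion. G0s2, an inhibitor of the fat lipase ATGL, had authors' means of 241, 589 and 260.2. St3gal5, the synthase of the ganglioside GM3, had authors' means of 994 in control, 1936 in Qk5 depletion and 987 in Qk6/7 depletion, so that the control and Qk6/7 values lay within 1% of each other. Samd8, a sphingolipid enzyme, had authors' means of 1269.6, 2378 and 1474, and Pltp, a phospholipid transfer protein, 467, 827 and 471. Bdh2, B3gnt9-ps and Eno2 complete the group, with ratios of 2.37, 2.64 and 1.86.

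The 4 lysosomal and endoplasmic reticulum genes include some of the most abundant of the 83. Lamp2, a major lysosomal membrane protein, had authors' means of 3141 in control, 5711 in Qk5 depletion and 3229 in Qk6/7 depletion. Mfsd1, a lysosomal transporter, had authors' means of 2415, 4484 and 2542. Ctns, the lysosomal cystine exporter, was lower in level and higher in ratio, with authors' means of 161, 386 and 136. Erlec1, a lectin of the endoplasmic reticulum, had authors' means of 434, 761 and 404. All 4 were called higher in Qk5 depletion.

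Proteases, inhibitors and host defence genes were another 4, all called. Casp4, an inflammatory caspase, had authors' means of 73.1 in control, 182 in Qk5 depletion and 66.1 in Qk6/7 depletion. Serpinb1a, an inhibitor of neutrophil serine proteases, had authors' means of 334, 762 and 292. Gm15386, which RefSeq lists as the beta-defensin gene Defb41, had authors' means of 64.3, 191 and 55.0. 9930111J21Rik2, which has a paralog of nearly the same name that may share its reads, had authors' means of 152, 319 and 178, and its level is uncertain.

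Nuclear regulators were 6, of which 5 were called higher in Qk5 depletion. Ccng2, a cyclin linked to cell cycle exit, had authors' means of 557 in control, 1172 in Qk5 depletion and 608 in Qk6/7 depletion. Hdac9, a class II histone deacetylase that binds MEF2 factors, had authors' means of 114, 212 and 116. Tcf7, a transcription factor at the end of Wnt signalling, had authors' means of 204, 360.1 and 244, and was with Wnt4 the only listed gene of 33 on the Wnt list. Wnt4 went the other way, with authors' means of 89.5, 42.2 and 71.5, and was called lower in Qk5 depletion. 2810474O19Rik, which RefSeq lists as Resf1, was the most abundant of the group, with authors' means of 1180.5, 2083 and 1285. Among 5 genes of the cytoskeleton, scaffolds and cilia, 4 were called. Tubb3, a tubulin best known from neurons, had authors' means of 1700.0, 3159 and 1525 and was the only listed gene of 11 neuron and glia markers. Pclo, a presynaptic scaffold protein, was among the lowest in level, with authors' means of 21.8, 63.4 and 24.2. Krt14, a keratin of basal epithelium, had authors' means of 165, 317 and 168.

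The other 28 genes have no role assigned here, and 22 of them were called higher in Qk5 depletion. Tmem45a, a membrane protein, had the second largest ratio of the 83, 3.87-fold, with authors' means of 45.7 in control, 177 in Qk5 depletion and 54.2 in Qk6/7 depletion. AA467197 had authors' means of 37.5, 119.8 and 34.2, and AK014704 46.8, 139 and 47.9. Tmem150a, another membrane protein, had authors' means of 260.1, 699 and 238. 4833442J19Rik, which RefSeq lists as the methyltransferase gene Etfbkmt, had authors' means of 65.6, 195 and 79.0. The unannotated AK144695 was the fifth most abundant of the 83, with authors' means of 1512 in control, 3129 in Qk5 depletion and 1355 in Qk6/7 depletion. Fam114a1 had authors' means of 862, 1621 and 899, and Ikbip, which is encoded beside Apaf1, 932, 1658 and 799. Ankrd37, a gene induced by hypoxia in other settings, had authors' means of 82.6, 145 and 99.8. Of 35 hypoxia genes 6 were listed, with 3 called higher and none lower in Qk5 depletion, where 34.7% of all listed genes were called higher, and 1 in each direction in Qk6/7 depletion. In all, RefSeq names 73 of the 83, of which 70 are protein-coding, 2 are long non-coding RNAs and 1 is a small nucleolar RNA.

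**Figure D2:**
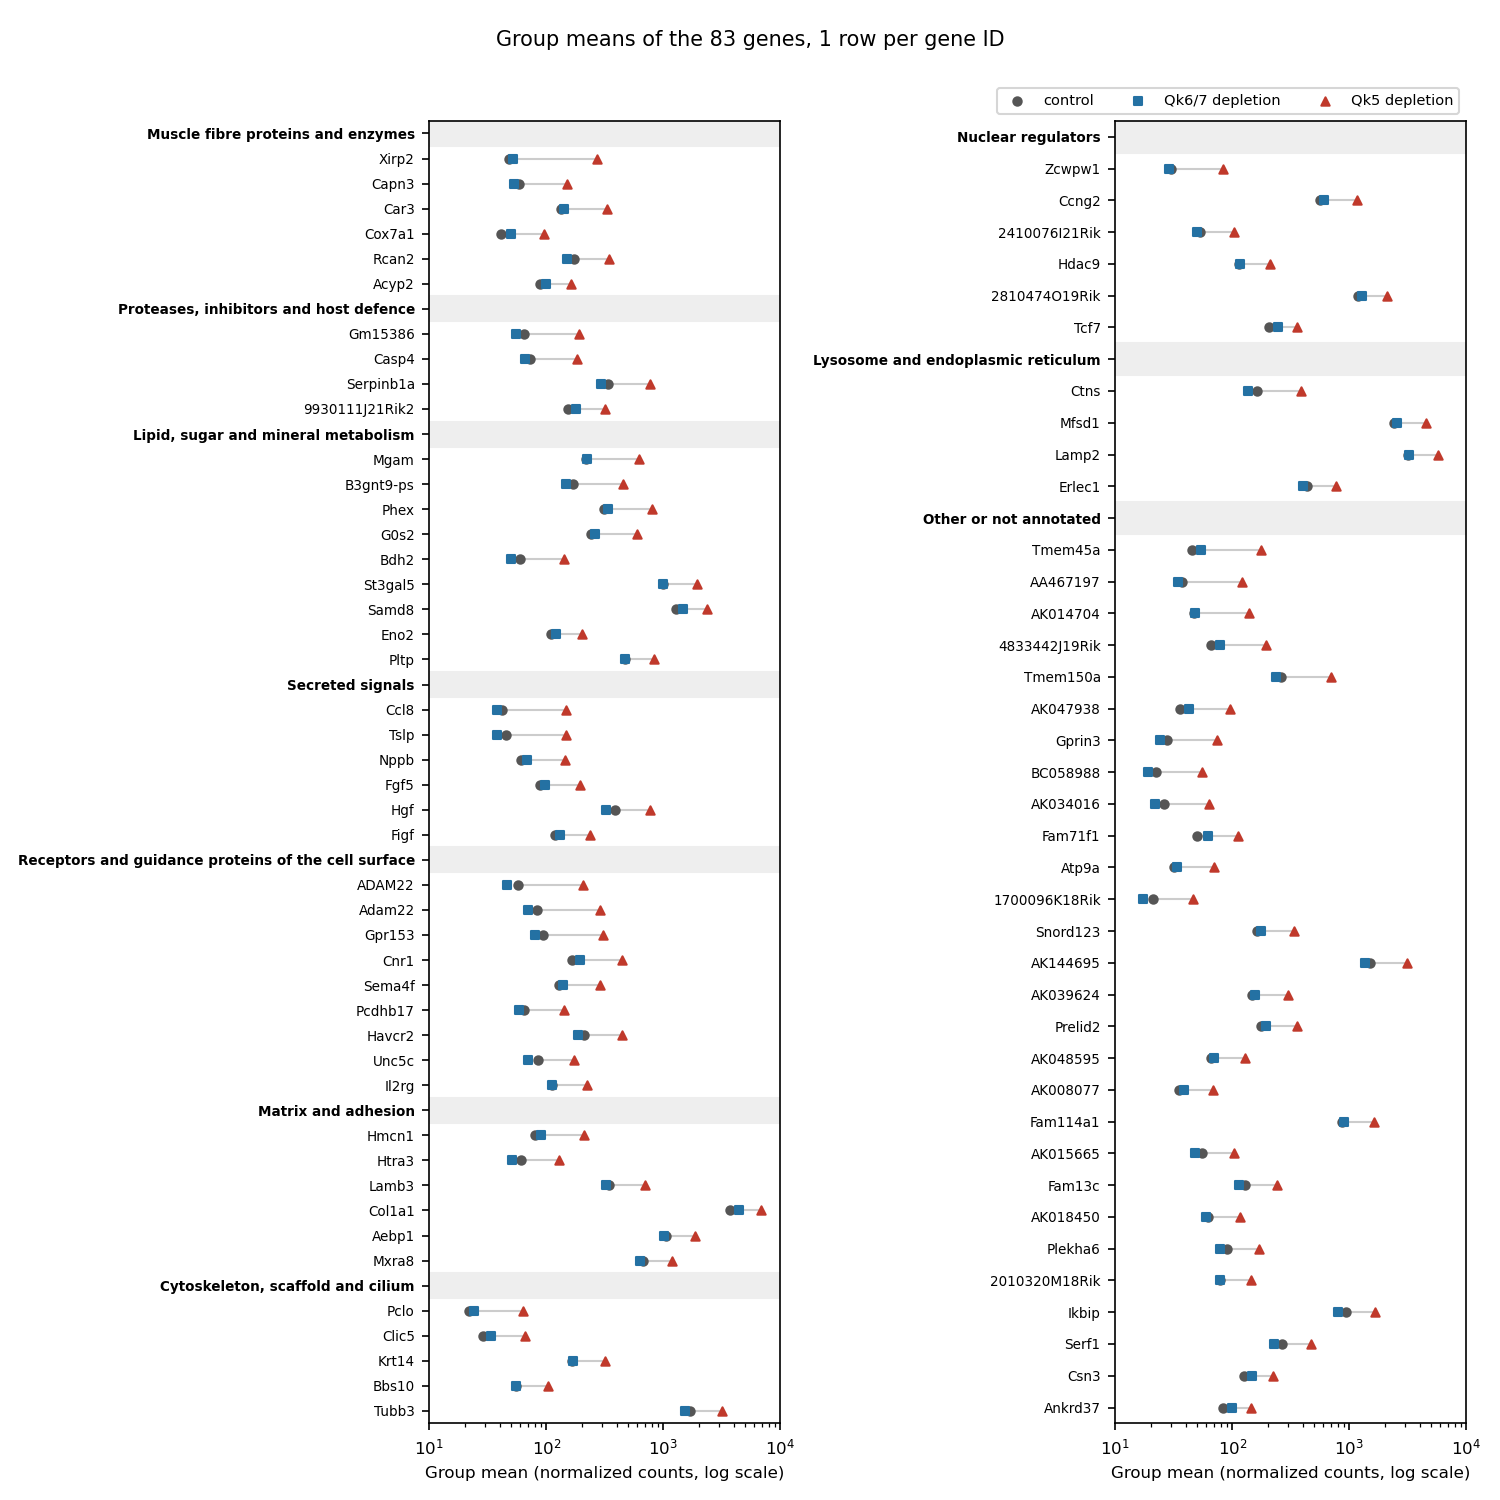
Authors' group mean (normalized counts, log scale) of each of the 83 gene IDs, grouped by role, with circles for control, squares for Qk6/7 depletion and triangles for Qk5 depletion. The grey line joins control and Qk5 depletion. No error bars are drawn because the table gives none. The triangle is the rightmost symbol in all 83, and circles and squares lie close together by the way the genes were chosen.

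Genes of lower level had the larger ratios. The 41 genes with a control mean from 20 to 100 had a median log2 ratio of 1.26 in Qk5 depletion and a range of 0.81 to 2.48. The 29 from 100 to 500 had a median of 1.01 and a range of 0.81 to 1.49, and the 13 at or above 500 a median of 0.89 and a range of 0.82 to 1.07. Because the table is limited to genes past an adjusted p, these medians describe the listed genes and not all genes of that level. The conditions also draw lines through a continuum. Just inside the limit on Qk5 depletion were Ankrd37, Erlec1 and Mxra8, at log2 ratios of 0.81, 0.81 and 0.82, and just outside were Itgbl1, Car5b and L1cam, each at 0.79. On the control mean, 1700096K18Rik at 21.2, Pclo at 21.8 and BC058988 at 22.1 were inside, and AK012506 and Fgf10 at 19.2 and Lama3 at 17.2 outside. On the absolute log2 ratio in Qk6/7 depletion, Fam71f1 at 0.297, Cox7a1 at 0.294 and 1700096K18Rik at 0.289 were inside, and Nox4 at 0.3001, Nlgn2 at 0.308 and BC005764 at 0.3101 outside.

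Exon use is a measure the selection did not use. Per the authors' deposited splicing table, which gives 1 DEXSeq adjusted p per exon bin over the 3 conditions together, 4 of the 83 genes (4.82%) had a bin at adjusted p under 0.05, where 2.70% of the genes of the expression table did. The share was 2.35% of 85 genes higher in both depletions, 3.17% of 63 higher in Qk5 and lower in Qk6/7 depletion, and 3.64% of 55 lower in Qk5 depletion alone. These groups were set by log2 ratios and not by calls. The limits were 0.8 in Qk5 depletion and 0.3 in Qk6/7 depletion, with the same minimum control mean. These counts of few genes were not tested against each other. A bin's log2 value is its use relative to the rest of the gene, and is not tested in either depletion on its own.

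Lamp2 had the smallest adjusted p of these calls. It is known to be made with alternative last exons that change the protein's tail. The bin at X:35758241-35758748 (mm9, minus strand), near the 3' end of the gene, had log2 use of 0.32 in Qk5 depletion and -0.69 in Qk6/7 depletion, with an adjusted p of 1.48e-29 in the authors' deposited table. The bin at its 3' side, X:35754538-35755458, stood at 0.14 and -0.73, and the next one at X:35772686-35775028 stood at -0.07 and 0.25, but their adjusted p of 1 and 0.507 in the authors' deposited table missed the threshold. The value farthest from 0 in the gene was in another bin, X:35783059-35784094, at -1.04 in Qk5 depletion and 0.60 in Qk6/7 depletion, with an adjusted p of 1 in the authors' deposited table. For Hgf, the called bin was 5:16078453-16079252 (mm9, plus strand), directly beyond the bin that ends at 16078452. Its log2 use was -1.16 in Qk5 depletion and 0.11 in Qk6/7 depletion, with an adjusted p of 0.0497 in the authors' deposited table, just under the threshold. The remaining calls were small. Samd8 had log2 use of -0.20 in Qk5 depletion and 0.00 in Qk6/7 depletion at 14:22594185-22594777 (mm9, plus strand), with an adjusted p of 0.0115 in the authors' deposited table. The gene listed as Snord123 had 0.11 and -0.17 at 15:32170324-32171524 (mm9, minus strand), with an adjusted p of 0.0351 in the authors' deposited table. Its bins run from 32170323 to 32176483, longer than a small nucleolar RNA, and its authors' means were 161 in control, 336 in Qk5 depletion and 177 in Qk6/7 depletion.

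**Figure D3:**
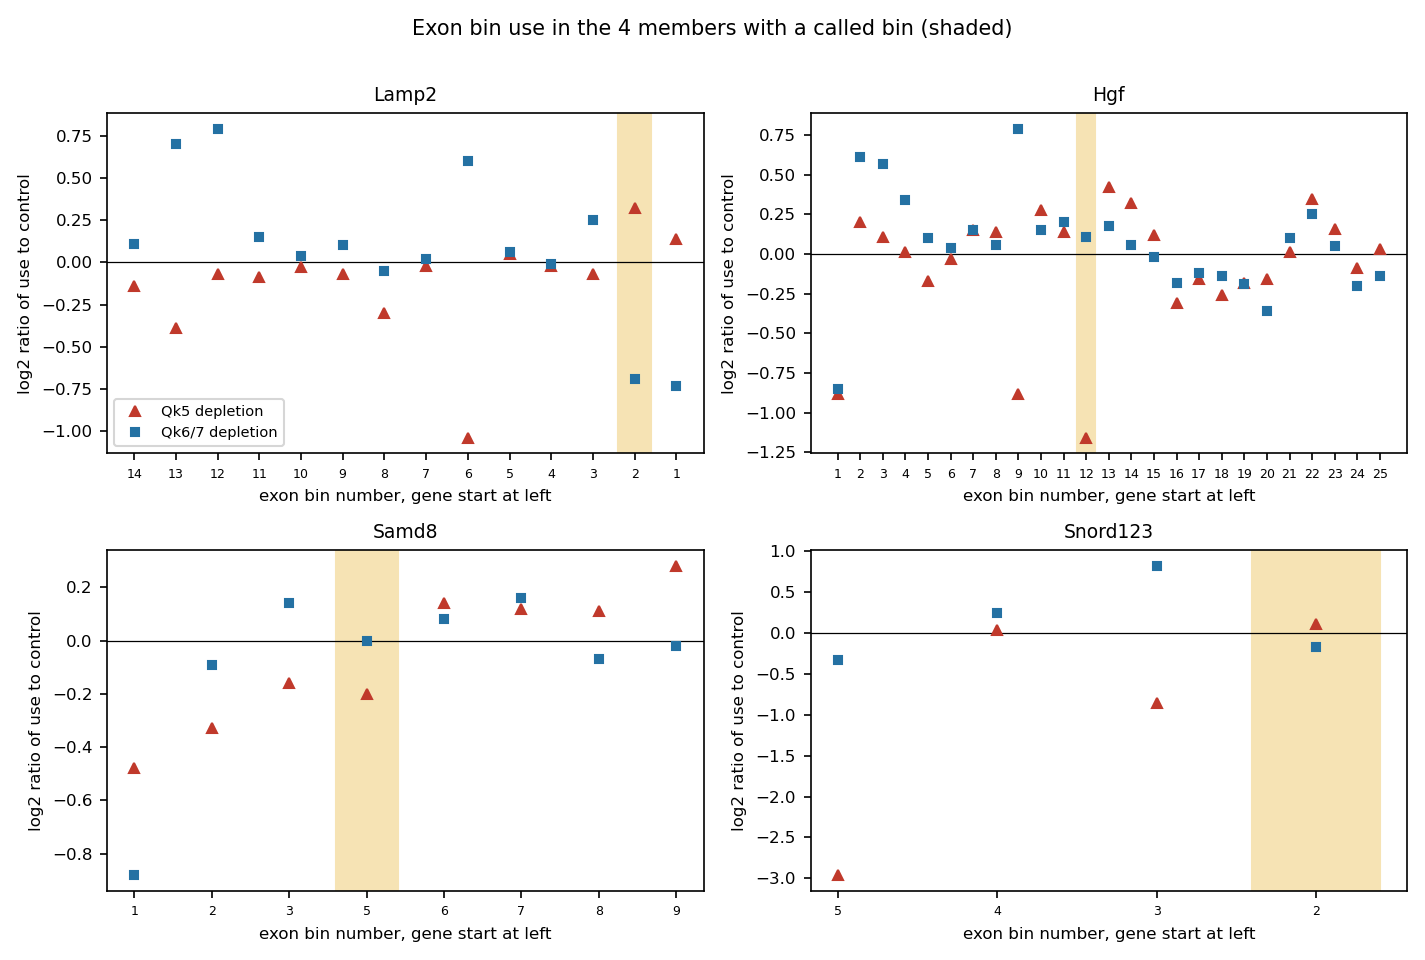
Log2 exon use relative to control (vertical axis) for each bin of Lamp2, Hgf, Samd8 and Snord123, in order along the gene, in Qk5 and Qk6/7 depletion, from the authors' deposited splicing table. Called bins are shaded, bins with no adjusted p are not drawn, and the start of each gene is at the left. In Lamp2 the called bin lies at 0.32 in Qk5 depletion and -0.69 in Qk6/7 depletion, and in Hgf at -1.16 and 0.11.

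Since the Quaking word can lie in 3' UTRs, the longest annotated 3' UTR of each gene (GENCODE M21) was searched on the sense strand for ACTAAC. It was in 12 of the 69 genes with a UTR (17.4%), against 20.9% of 950 listed genes and 18.4% of all 21126 GENCODE genes. The median UTR was 1001 bases long for these genes, 1323 for the listed genes and 1086.5 for all. Per kilobase the word occurred 0.173 times in these genes, 0.151 times over the listed genes and 0.150 times over all. These shares of ACTAAC are close to the background. With ACTAAT counted as well, 16 of the 69 (23.2%) held a word, below 35.8% of listed genes and 32.8% of all, while the words per kilobase were 0.393, 0.342 and 0.346. No test of these shares was made. A partner word, TAAC or TAAT, within 20 bases was present for 6 of the 69 (8.70%), against 7.16% of listed genes and 6.39% of all. These 6 sites are shown because a partner word lies near, with ACTAAC in capitals and the position of its first base in the UTR before each. The partner can lie outside the stretch printed. A match is a description and not a site of binding.
Gprin3, base 382 of 5803: gcaaaaacaactACTAACaacactgtggta
Clic5, base 2391 of 4791: aactataatgagACTAACcaatgtcttagg
9930111J21Rik2, base 653 of 3196: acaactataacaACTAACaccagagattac
Unc5c, base 1472 of 6352: tccagccttccaACTAACtgtaaattctac
Rcan2, base 1433 of 2383: acacacaagaacACTAACacagccacctga
Hdac9, base 1371 of 4721: cttcacatgaaaACTAACacagaacttaac
Of these genes, Clic5 had authors' means of 28.6 in control, 66.2 in Qk5 depletion and 33.5 in Qk6/7 depletion, and Gprin3 27.7, 73.5 and 23.9. The values of Unc5c, Rcan2, Hdac9 and 9930111J21Rik2 are given with their groups.

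Promoters of 250 bases before to 50 after each start (RefSeq, GRCm38.p6) were found for 62 of the genes and searched on both strands for 3 words. CAGCTG, an E-box that myogenic factors can bind, was in 20 of the 62 (32.3%), against 22.7% of 743 listed genes and 18.3% of all RefSeq promoters. It was in 37.5% of genes higher in Qk5 and lower in Qk6/7 depletion, 29.2% of those higher in both and 21.1% of those lower in Qk5 depletion alone, and these shares were not tested against each other. TGACTCA, the AP-1 word, was in 4 (6.45%), against 7.81% of listed genes and 5.95% of all. ACGTG, the hypoxia response word, was in 16 (25.8%), against 24.8% and 21.8%. The promoters of Capn3 and Rcan2, from the muscle group, and of the neighbours G0s2 and Lamb3 are shown because each holds CAGCTG, in capitals. The promoters found for Xirp2, Cox7a1 and Acyp2, also from the muscle group, do not hold it. Other listed starts of Rcan2 and Lamb3 lack it as well. The sequences are written along the strand of the gene.
Capn3, chr2:120476659-120476958, plus strand: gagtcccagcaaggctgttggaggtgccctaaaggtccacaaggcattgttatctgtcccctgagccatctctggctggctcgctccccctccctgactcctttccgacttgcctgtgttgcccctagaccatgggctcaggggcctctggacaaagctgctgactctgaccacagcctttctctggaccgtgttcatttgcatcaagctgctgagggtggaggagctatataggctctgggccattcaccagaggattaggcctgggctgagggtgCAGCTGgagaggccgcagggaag
Rcan2, chr17:43801601-43801900, plus strand: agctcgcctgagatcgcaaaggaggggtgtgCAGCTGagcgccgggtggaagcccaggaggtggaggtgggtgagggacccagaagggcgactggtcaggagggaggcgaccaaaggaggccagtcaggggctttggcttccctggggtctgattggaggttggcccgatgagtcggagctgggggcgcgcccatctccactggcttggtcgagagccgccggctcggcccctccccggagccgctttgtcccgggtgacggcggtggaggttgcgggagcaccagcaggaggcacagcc
G0s2, chr1:193273139-193273438, minus strand: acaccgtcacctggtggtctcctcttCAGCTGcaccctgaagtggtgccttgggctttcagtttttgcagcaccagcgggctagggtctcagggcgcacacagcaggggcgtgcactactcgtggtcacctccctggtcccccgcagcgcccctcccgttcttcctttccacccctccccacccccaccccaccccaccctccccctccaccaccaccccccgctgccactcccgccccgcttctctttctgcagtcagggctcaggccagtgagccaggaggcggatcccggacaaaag
Lamb3, chr1:193301744-193302043, plus strand: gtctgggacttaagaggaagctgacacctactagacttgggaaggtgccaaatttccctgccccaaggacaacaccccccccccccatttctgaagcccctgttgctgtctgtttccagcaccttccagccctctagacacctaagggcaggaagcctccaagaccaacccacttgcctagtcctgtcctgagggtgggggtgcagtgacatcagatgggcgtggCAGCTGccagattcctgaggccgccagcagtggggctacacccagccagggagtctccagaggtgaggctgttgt
The word begins 219 bases before the start in Rcan2, 224 before it in G0s2 and 25 before it in Lamb3. In Capn3 it begins at base 28 after the second listed start, and the first listed start of Capn3 has another, 214 bases before it.

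G0s2 and Lamb3 are adjacent protein-coding genes on chromosome 1, read in opposite directions, and their ratios in Qk5 depletion were 2.44-fold and 2.04-fold. Of the 69 genes placed in the RefSeq order, 8 (11.6%) had another of the set within 3 protein-coding genes. The share was 7.32% for genes higher in both depletions, 9.26% for those higher in Qk5 and lower in Qk6/7 depletion, and 0 of 52 for those lower in Qk5 depletion alone. Over all 957 listed genes that could be placed it was 32.8%, in a much longer list. The other pairs were Acyp2 and Erlec1 on chromosome 11, Rcan2 and Clic5 on chromosome 17, and 4833442J19Rik and 2810474O19Rik on chromosome 6. None of the genes between the members of a pair is listed in the authors' deposited table, and no test of these shares was made.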

How the data were processed

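RNA sequencing of C2C12 myoblasts was processed by the authors with Bowtie2, TopHat2, SAMtools, bedtools and DESeq on mm9, per the submitters' processing notes, which give no versions. How reads were counted, on which strand, and how the 2 runs of replicate 1 were joined is not stated in those sources. Per the file headers, the authors' expression table gives a mean signal (normalized counts) per group, the fold (ratio over control), its log2, a DESeq p-value and an adjusted p-value. The authors' deposited splicing table gives a log2 value of use and 1 DEXSeq p-value per exon bin.

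From these, ratios of group means were computed (Python 3.11.15, pandas 2.3.3, numpy 2.4.6, matplotlib 3.10.9), with no pseudocount and no test. The genes tested, 16604 in Qk5 and 16564 in Qk6/7 depletion, were recomputed by the Benjamini-Hochberg method from the adjusted p-values. A broken row of the expression table was rejoined. Only group means are deposited, so no interval can be given, and depth is unknown.

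The members and lists were chosen with earlier results of these data known. Named genes were the 12 largest ratios, the 12 highest control means, list members, genes with exon bins and those at the limits. Others were named for their roles after their values were seen. Alternatives varied the limits, thresholds, pseudocount, UTR and start.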

Additional observations from a re-analysis of the deposited data

How the results depend on the processing

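The number of genes selected depended on the limits. From 83 it became 42 with a minimum control mean of 100, 49 with a Qk5 log2 ratio of at least 1, and 138 with at least 0.6. It became 52 with an absolute Qk6/7 log2 ratio under 0.2 and 127 under 0.5. With no minimum control mean it was 120, with a pseudocount of 1 it was 85 and of 10 it was 86, of which 76 were shared, and with no gene left out it was 103, an alternative chosen after seeing the data. Genes called in Qk5 depletion were 57 at an adjusted p of 0.01 and 83 at 0.1, and in Qk6/7 depletion 0 at both. Only genes past an adjusted p of 0.1 were listed, and the selection bounds the Qk6/7 ratio, so nothing is read from these counts. Genes with a called exon bin fell from 4 to 1 at an adjusted p of 0.01, and the share over all listed genes at that threshold is not given. Genes with ACTAAC fell from 12 to 5 in the shortest annotated UTR, which is shorter by construction. That was 7.25% of 69 genes, against 10.6% of listed genes and 10.1% of all GENCODE genes. With only the first listed start, also chosen after seeing the data, the E-box, AP-1 and hypoxia response words were in 19, 3 and 14 genes. Those were 30.6%, 4.84% and 22.6% of 62 genes, against 20.1%, 6.33% and 20.6% of listed genes. Over all RefSeq promoters the shares were 16.1%, 5.17% and 19.7%, and these shares were not tested against each other. No paired analysis was possible because the deposited tables hold no value per replicate, and for the same reason leaving out each replicate was not run. Depth is unknown, so its limit on the low-level genes cannot be given.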

Other observations

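Some relatives of the 83 genes, chosen after their values were seen, were listed as well. Clade B serpins, which inhibit proteases inside cells, had 12 genes in the authors' deposited table, of which 11 were called higher in Qk5 depletion and 1, Serpinb9b, lower in Qk6/7 depletion. Over all listed genes 34.7% were called higher in Qk5 depletion and 20.7% lower in Qk6/7 depletion, and the family was picked with its values known. Only genes past an adjusted p of 0.1 were listed, so other family members are not seen and nothing is read from these counts. The serpins' ratios in Qk5 depletion ran from 1.55 to 22.5, and 8 of the 12 had a control mean under 20. Serpinb7 had authors' means of 7.86 in control, 177 in Qk5 depletion and 8.36 in Qk6/7 depletion, the largest ratio of the family. Serpinb9b had authors' means of 1293, 2008 and 707, opposite in direction in the 2 depletions. Many of these genes are close paralogs next to each other, and reads shared between them make their levels uncertain.

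The inflammatory caspase Casp1 had authors' means of 23.6 in control, 75.3 in Qk5 depletion and 15.002 in Qk6/7 depletion, beside Casp4 among the 83. Casp12 had authors' means of 426, 653 and 233, and its adjusted p in the authors' deposited table was 0.0586 for Qk5 and 0.0299 for Qk6/7 depletion.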
